A study of Mus musculus with 16 samples.

Results

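The stretch of mouse chromosome 1 from 135 to 140 Mb (NCBI37/mm9) was examined for acetylation of histone H3 at lysine 27 (H3K27Ac) in normal, inflamed and neoplastic livers. Its members were the merged regions, that is, overlapping or adjoining H3K27Ac peaks of all 15 animals joined into 1 interval, that overlap this segment by at least 1 bp. There were 333 such regions among 56941 in the genome. The segment had been chosen by its peaks in the HCC nodules in earlier results of these data, so nodules are described there without a test. The earlier description spoke of a dense block of peaks in the nodules. The data go against the plural: the block was found in 1 of the 5 nodules, animal 123206, and in none of the other 14 animals.

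H3K27Ac was measured by chromatin immunoprecipitation and sequencing (ChIP-seq) in 5 WT livers (strain FVB.129P2 in the sample labels, FVB/NJ in the methods of the study), 5 inflamed livers and 5 HCC (hepatocellular carcinoma) nodules of Mdr2-KO mice (FVB.129P2-Abcb4tm1Bor/J), each library from a different animal. Mdr2 (Abcb4) encodes the phosphatidylcholine transporter of hepatocytes, and the allele is a full knockout, so that hepatocyte injury follows the lack of phospholipid in bile. All 15 mice, WT included, had received clodronate liposomes (50 μg per g of body weight) for 48 h, which deplete macrophages. WT livers and nodules came from animals of 14 to 19 months and inflamed livers from animals of 7 to 8 months, so genotype and age cannot be told apart between inflamed and WT livers, nor disease stage and age between nodules and inflamed livers. The sex of each animal was not given. The tissue was bulk, so a change in the share of a cell type and a change of acetylation within cells cannot be told apart.

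H3K27Ac is placed by acetyltransferases at promoters and enhancers in use, usually as peaks of a few kilobases with unmarked sequence between them. Clusters of closely spaced peaks, joined into wide domains, mark genes that define a tissue, such as those of hepatocyte identity in liver. A peak is an interval in which the peak caller found more reads than in the background. Lists held 26390 to 42736 peaks, and inflamed lists were longer than WT lists. No reads were part of the files used, so sequencing depth and read density within a peak are unknown. The control used in peak calling is not given in the sources used here, and no unenriched chromatin of any of the 15 animals was analysed here, so whether a set of peaks of 1 animal is also seen in its unenriched chromatin is not known. No annotation of the mm9 build was given, so no region was assigned to a gene, promoter, exon or intron, and no sequence is shown.

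In the segment, the number of peaks of WT animals 134501, 129296, 130747, 129297 and 130748 was 116, 115, 121, 121 and 128. Inflamed animals 148997, 148998, 149198, 149199 and 148990 had 156, 164, 171, 176 and 146 peaks. Nodules 124711, 125278, 125279, 123206 and 123390 had 131, 152, 169, 250 and 97 peaks. Nodule 123206 was the highest of all 15 animals and nodule 123390 the lowest, so that the nodules spanned both other groups. The length under peaks was 553 to 708 kb in WT livers and 707 to 792 kb in inflamed livers. In the nodules it was 482, 717, 827, 1562 and 693 kb in the same order. Peaks thus covered 31.2% of the segment in nodule 123206 and at most 16.5% in any other animal.

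The group values of the nodules rested on 123206. With it the nodules had 160 ± 57.1 peaks (SD, n = 5) and 856 ± 414 kb under peaks. Without it they had 137 ± 31.0 peaks (SD, n = 4) and 680 ± 144 kb, between the means of WT livers (120 ± 5.17 peaks and 616 ± 63.3 kb, SD, n = 5) and inflamed livers (163 ± 11.9 peaks and 744 ± 32.4 kb, SD, n = 5). The 5 Mb before and after the segment did not set 123206 apart. It had 91 peaks before and 31 after it, within the range of the other nodules, 83 to 132 and 9 to 53. Among 534 segments of 5 Mb of chromosomes 1 to 19 and X, the lead of the highest animal over the second highest was 74 peaks in this segment, the second largest lead of all. By covered length the lead was 735 kb, also the second largest. The segment was chosen by its peaks in the nodules, so both ranks draw on the values of that choice and only describe it. The largest lead by both measures was again that of nodule 123206, on chromosome 9 between 5 and 10 Mb.

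**Figure D1:**
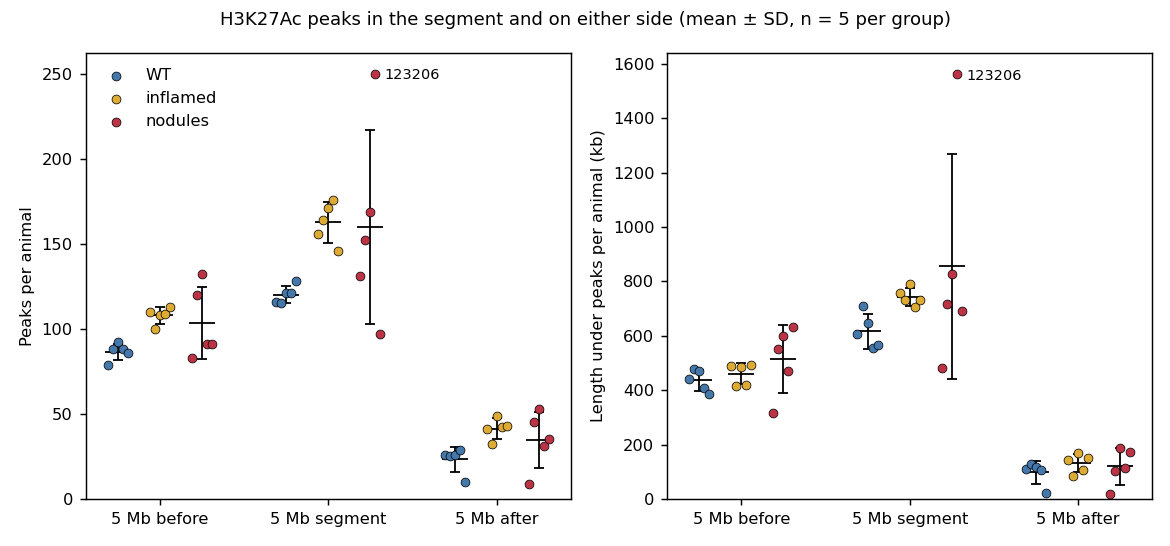
Number of peaks (left axis, peaks per animal) and length under peaks (right axis, kb per animal) in the 5 Mb before the segment, the segment and the 5 Mb after it; points are animals, bars mean ± SD (n = 5 per group). Nodule 123206 lies at 250 peaks and 1562 kb in the segment and among the other nodules on either side.

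In steps of 1 Mb, the excess of 123206 was in the last 2 steps of the segment. From 139 to 140 Mb it had 123 peaks covering 568 kb, where the other 14 animals had 0 to 14 peaks covering 0 to 41.7 kb. From 138 to 139 Mb it had 48 peaks, which is within the 30 to 50 of the others, but these covered 566 kb against 102 to 263 kb. Peaks were therefore wider but not more numerous in the first of these steps, and both in the second. At 138729967 to 138873806, in the first, 123206 had 1 peak and each of the others 10 to 17. The count of peaks in that step thus does not give the number of marked sites. In the first 3 steps and in the step after the segment, 123206 was within the range of the other animals in number of peaks.

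**Figure D2:**
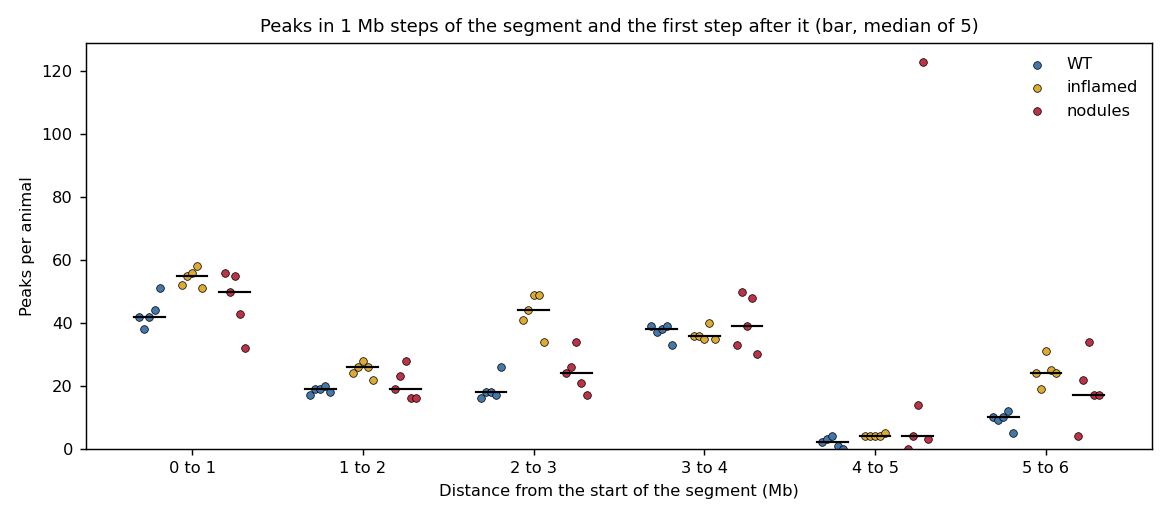
Peaks per animal (y axis) in the 5 steps of 1 Mb of the segment and the first step after it (x axis, distance from the start of the segment in Mb); points are animals and bars the median of the 5 in a group. Nodule 123206 has 123 peaks in the step from 4 to 5 Mb, where no other animal exceeds 14, and inflamed livers have 34 to 49 peaks in the step from 2 to 3 Mb against 16 to 26 in WT livers.

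The edges of the block were then located in steps of 100 kb. For each animal the share of each step under peaks was set against the mean of the WT and inflamed livers (the other 9, for a WT or inflamed animal), less a further 10% of the step, and the run of consecutive steps with the largest sum was taken. In nodule 123206 the run went from 138.3 to 140.0 Mb, 1.7 Mb or 17 steps. Its excess, the length under peaks beyond this reference, was 782 kb. In the other 14 animals the best run of chromosome 1 lay elsewhere and its excess was 8.86 to 105 kb, the highest being that of nodule 123390 from 155.5 to 156.0 Mb. On all chromosomes, the excess of the chromosome 1 block was the second largest of 300 runs, after one on chromosome 9 in the same nodule. This rank, too, only describes the peaks by which the segment was chosen.

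**Figure D3:**
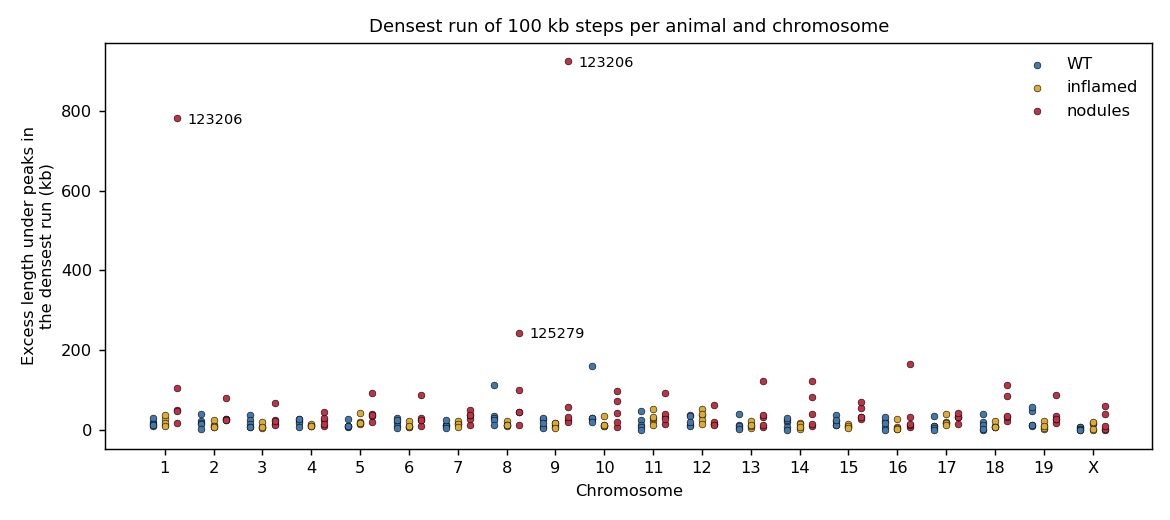
Excess length under peaks (y axis, kb) in the densest run of 100 kb steps of each animal on each chromosome (x axis); points are animals, coloured by group. Nodule 123206 lies at 925 kb on chromosome 9 and 782 kb on chromosome 1, nodule 125279 at 243 kb on chromosome 8, and the other points at or below 164 kb.

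In all 17 steps of the block, 123206 was above all other animals. Its coverage rose from 3.39% in the step before the block to 22.2%, 80.9% and 89.0% in the first 3 steps. It reached 99.1% from 138.8 to 138.9 Mb, and then fell, not evenly, to 38.8% in the last step and 4.10% in the first step after it. The other animals had peaks mainly in the left part of the block, up to 70.6% of a step from 138.5 to 138.6 Mb and 69.9% from 138.8 to 138.9 Mb. From 139.2 Mb to the right edge none of them exceeded 4.75% of a step, and in 2 steps none had a peak. On the left, then, the block lay over a domain with peaks in all 15 animals, and on the right over sequence with almost no peaks in the other 14.

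**Figure D4:**
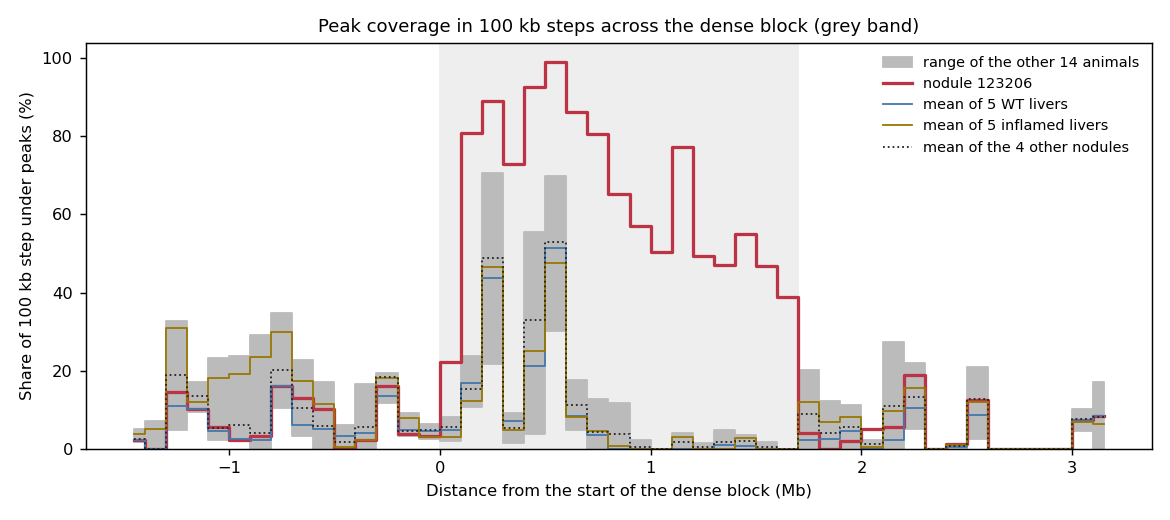
Share of each 100 kb step under peaks (y axis, %) against distance from the start of the block (x axis, Mb); red, nodule 123206; dark grey, range of the other 14 animals; thin lines, means of the WT livers, inflamed livers and the 4 other nodules; pale band, the block. The red line leaves the range of the other animals at the left edge, peaks at 99.1% and returns into the range at the right edge.

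The right edge was sharp. The last 3 peaks of 123206 there were at 139986586 to 139991004, 139995773 to 140000012 and 140002432 to 140004224, separated by 4768 and 2419 bp. The next peak followed after 66086 bp, at 140070311 to 140072608, and the one after that after 171700 bp. At the left edge, the region at 138310415 to 138313658 had a peak in all 15 animals, and 123206 had no peak between there and 138365915. The first peak of 123206 within the block that no other animal had was at 138365915 to 138370421, and the last at 139995773 to 140000012, so that peaks of its own spanned 1.63 Mb. In the 1 Mb before the block 1 of 19 peaks, and in the 1 Mb after it 2 of 16, were its own.

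Within the block 123206 had 164 peaks covering 65.3% of its length. WT livers had 28 to 37 peaks covering 5.20% to 11.8%, inflamed livers 35 to 39 covering 7.99% to 10.5%, and the other nodules 27 to 50 covering 4.49% to 14.3%. The median gap between neighbouring peaks was 1947 bp in 123206 and 5478 to 10250 bp in the other 14. The longest stretch without a peak was 52.3 kb in 123206 and at least 235 kb in each of the others. Outside the block the segment gave no such contrast. There 123206 had 86 peaks and 451 kb under peaks, against 68 to 120 peaks and 406 to 587 kb in the other nodules.

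**Figure D5:**
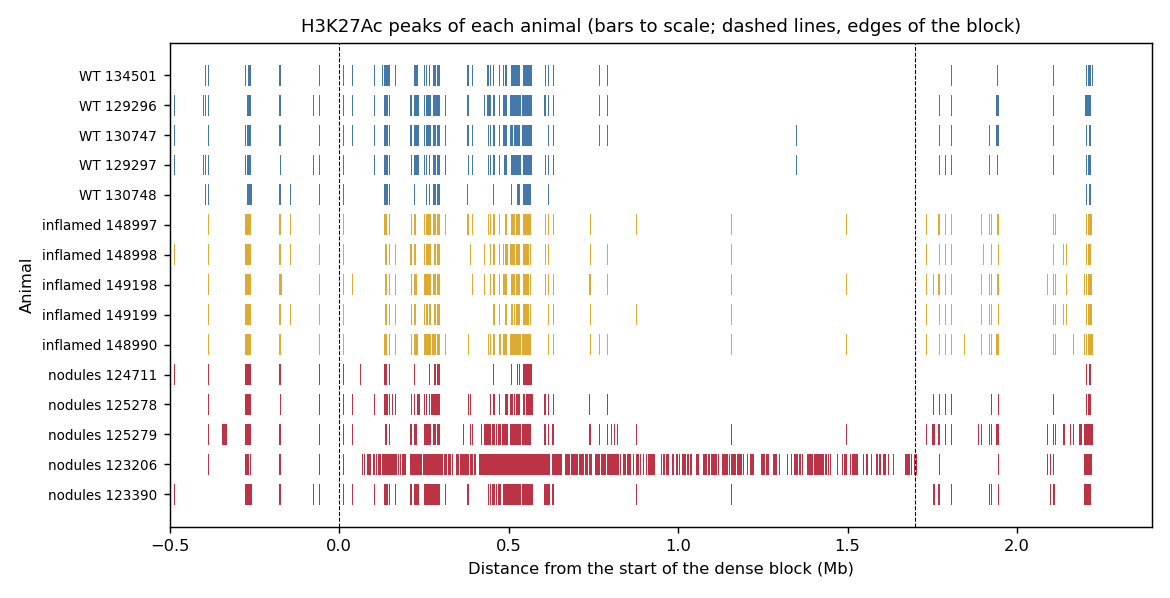
Position of every peak of each animal (1 line each) by distance from the start of the block (x axis, Mb), bars drawn to scale and coloured by group; dashed lines mark the edges of the block. Among the 15 animals nodule 123206 alone is filled between the lines, and all share peaks in the left part of the block and on both sides of it.

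Of the 164 block peaks of 123206, 135 (82.3%) overlapped no peak of another animal, against 2 of its 86 peaks in the rest of the segment. The 135 peaks were 1303 to 16518 bp wide, with a median of 3774 bp, close to the 3480 bp of its whole list. They ranked low: each peak's score was placed as a percentile among the scores of the same list, and the median of these 135 was at 19.0, with none above 67.8. The 29 block peaks shared with other animals were wider, with a median of 10274 bp and a median percentile of 67.4. Over all 164 peaks the median percentile was 25.1, and 138 of them were at or below the 50th percentile. Block peaks of the other 14 animals had median percentiles of 35.7 to 61.8. In the top 50% of each list by score, 26 block peaks of 123206 remained, covering 29.2% of the block, against 7 to 29 peaks covering 1.61% to 11.6% in the others. The length under peaks in 123206 was thus still the highest of the 15 in this shorter list, and the number of peaks was not.

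The shared regions of the block, 8 with a peak in all 15 animals, showed the same contrast in width. Nodule 123206 had the most base pairs under peaks in all 8, at a median of 2.22 times the median of the other animals. In the 40 regions with a peak in all 15 animals elsewhere in the segment it was the highest in 2, at a median ratio of 0.932. In the genome it was the highest in 9.20% of 12112 such regions, at a median ratio of 1.04. No test was made of this contrast, because the block had been found in the same peaks.

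The widest of the 8 lay at 138729967 to 138873806. In 123206 it was a single peak of 143840 bp, the widest of all 500869 peaks in the 15 lists. In the other 14 animals the same region held 10 to 17 separate peaks. WT animals 134501, 129296, 130747, 129297 and 130748 had 74280, 94562, 83244, 74435 and 34490 bp under peaks there. Inflamed animals 148997, 148998, 149198, 149199 and 148990 had 71861, 69337, 70759, 59732 and 81789 bp. Nodules 124711, 125278, 125279 and 123390 had 34164, 81099, 105818 and 114069 bp. The values of the 3 groups overlapped, and nodule 124711 and WT animal 130748 were the lowest of all.

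Among the regions with a peak in all 15 animals, the widest of the segment after it were at 135158000 to 135214986 (56987 bp), 138547097 to 138598831 (51735 bp), 135242489 to 135284149 (41661 bp) and 138508299 to 138544661 (36363 bp). Outside the block, nodule 123206 was not the highest. At 135158000 to 135214986 it had 29520 bp under peaks, and WT livers had 39267 to 51035 bp, above the 24636 to 28505 bp of inflamed livers. At 135242489 to 135284149 it had 24374 bp, WT livers 27896 to 39352 bp and inflamed livers 23215 to 25370 bp. In both regions every WT liver was above every inflamed liver, and single regions were not tested. The share of all merged regions that separate in this way is not given here, so this is not shown to be particular to them. Median peak widths of the whole lists were 2890 to 3809 bp in WT and 2791 to 3197 bp in inflamed livers. Inside the block, 123206 filled the whole of both regions. At 138547097 to 138598831 the others had 18756 to 48228 bp, and at 138508299 to 138544661 they had 2843 to 22419 bp.

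The 333 member regions were of 1303 to 143840 bp, with a median of 3890 bp, against 3510 bp over all merged regions. The block held 167 of them and the rest of the segment 166. A peak in a single animal was found in 170 members (51.1%, against 22.9% of all merged regions) and a peak in all 15 in 48 (14.4%, against 21.3%). Of the 170, nodule 123206 accounted for 137, of which 135 lay in the block, and the other 14 animals for 0 to 11 each. Members with a peak in 123206 alone were thus 41.1% of the 333 members, against 2.49% of all merged regions. The segment was chosen by its peaks in the nodules, so this contrast and that of members in a single animal follow from the choice. Those 137 were 9.65% of all the regions that 123206 had to itself in the genome. With the list of 123206 left out before merging, an alternative chosen after seeing the data, 214 members were left, 47 (21.96%) of them in a single animal, against 22.7% of all regions merged in this way.

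At the limits of the segment, the first member, at 134994744 to 135003118, had a peak in 5 WT livers, 5 inflamed livers and 3 nodules, and the last region outside it, at 134986285 to 134994721, had one in all 15. The last member, at 139995773 to 140000012, passed the limit by a few bases and was of 123206 alone, as was the first region beyond the limit, at 140002432 to 140004224. The end of the block and that of the segment therefore nearly coincided, although the limit is a round number.

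By the number of nodules with a peak less the number of other livers, 14 members tied at the highest value, 2, of which 8 lay in the block and 6 outside it. None was common to all nodules. The 10 named here are those with the most base pairs under peaks in nodules, an order that the wide peaks of 123206 weigh on. The first 5, at 138656230 to 138669179, 139108646 to 139117188, 139117394 to 139125050, 139681469 to 139689992 and 139549111 to 139556086, all lay in the block. Each had a peak in nodules 123206 and 125279 only. The peaks of 125279 there covered 1451 to 3590 bp and those of 123206 6976 to 12950 bp. The same pair of nodules had the regions at 139218495 to 139222970 and, outside the block, at 137707790 to 137711201. The region at 135565174 to 135569479 was of nodules 125278 and 123390 only. The last 2 of these 10, at 135343838 to 135346497 and 138686235 to 138689217, had a peak in 3 nodules and in 1 WT or 1 inflamed liver. In the step from 139 to 140 Mb, nodule 125279 was the second highest animal, with 14 peaks. Its list was the longest, with 42736 peaks, and it had the most regions to itself in the genome, 4039. It was also the highest animal in steps outside the segment, with 34 peaks from 140 to 141 Mb and 23 from 130 to 131 Mb. Its peaks in the block are thus not set apart from its long list.

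At the other end of this difference, 3 members had the lowest value, -7. Those at 137713704 to 137720588 and at 134994744 to 135003118 were each found in all 10 WT and inflamed livers and in 3 nodules. The region at 135667070 to 135670648 was found in 4 WT livers, 5 inflamed livers and 2 nodules. A further 15 members tied at -6, of which 11 had a peak in 4 nodules and 2 in none. The 2 of them with the most base pairs under peaks in WT and inflamed livers, at 136408900 to 136420924 and 135841165 to 135853111, were found in all 10 and in 4 nodules. Nodule 123206 had no peak in 3 of these 5 named regions, and 10752 bp under peaks in the last, more than any other animal.

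No member was marked in every nodule while unmarked in every inflamed liver, or in every WT liver. These patterns were found in 0.105% and 0.220% of all merged regions. The reverse for WT livers, a mark in all 5 and in no nodule, was also absent (0.146% of all merged regions). Counted in 5 Mb segments, every nodule was above every inflamed liver in number of peaks in 0% of the 534 segments and above every WT liver in 1.87%, and this segment was not among them.

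Inflamed and WT livers could be tested, since the segment was not chosen on them. Inflamed livers had 42.4 more peaks than WT livers, 1.35 times their mean, and the groups did not overlap (p = 0.00794 in a two-sided exact permutation test, the lowest value possible with groups of 5; adjusted p = 0.0238 after Benjamini-Hochberg correction for 3 tests). The length under peaks was 127 kb greater, 1.21 times, with groups that overlapped slightly (exact permutation test, p = 0.0159, adjusted p = 0.0238). The median peak width was 3344 ± 273 bp in inflamed and 3533 ± 409 bp in WT livers (SD, n = 5), and the difference was not past the threshold (exact permutation test, adjusted p = 0.397). In the genome every inflamed liver was above every WT liver in 62.2% of the 5 Mb segments by number of peaks and in 21.3% by covered length, so a higher number of peaks in inflamed livers is not particular to this segment. Relative to the length of each list the difference in number was lost, with 4.24 ± 0.185 peaks per 1000 in inflamed and 4.25 ± 0.210 in WT livers (SD, n = 5; exact permutation test, adjusted p = 0.897). The covered length relative to that of the list was 0.506% against 0.481% (exact permutation test, adjusted p = 0.238). With equal lists of 26375 peaks the difference in number was -2.8 peaks (exact permutation test, adjusted p = 0.635).

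The neighbouring segments showed inflamed livers above WT livers in number of peaks as well. Before the segment the values were 108 ± 4.85 and 86.6 ± 4.77 peaks, and after it 41.4 ± 6.11 and 23.2 ± 7.53 (SD, n = 5). The groups overlapped in neither, but over 18 tests (2 segments, 3 pairs of groups and 3 measures) no difference passed the adjustment (exact permutation tests, smallest adjusted p = 0.0714, smallest unadjusted p = 0.00794, with 3 of the 18 unadjusted p under 0.05). No difference between nodules and inflamed livers in these segments was past the threshold (exact permutation tests, unadjusted p from 0.0714 to 0.754), and none was between nodules and WT livers (0.175 to 0.786, exact permutation tests). Relative to the list, nodules against inflamed livers before the segment gave lower unadjusted p (exact permutation tests). These were 0.0397 for number, 0.00794 for covered length (0.355% against 0.313%) and 0.0159 for width, with a smallest adjusted p of 0.0952. After the segment, WT animal 130748 and nodule 124711 were far below the rest, with 10 and 9 peaks against 25 to 53. Without nodule 124711, nodules had 17.8 more peaks than WT livers after the segment (exact permutation test, adjusted p = 0.0357). Before the segment their median peak width was then 598.5 bp above that of inflamed livers (exact permutation test, adjusted p = 0.0357), and the difference in covered length between these groups went from 54064 to 103638 bp (exact permutation test, adjusted p = 0.0893). Without WT animal 130748 no neighbouring test passed, and the inflamed livers then had 44.4 more peaks than WT livers in the segment itself (exact permutation test, adjusted p = 0.0238).

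Within the segment, inflamed livers stood out most in the third step, from 137 to 138 Mb. This step was singled out after its values were seen and no test was made. Inflamed animals 148997, 148998, 149198, 149199 and 148990 had 41, 44, 49, 49 and 34 peaks there. WT animals 134501, 129296, 130747, 129297 and 130748 had 16, 18, 18, 17 and 26. Nodules 124711, 125278, 125279, 123206 and 123390 had 24, 26, 34, 21 and 17. Inflamed livers were thus all above the WT livers, and the nodules were mostly in the range of the latter. The length under peaks was 140 to 194 kb in inflamed livers, 50.3 to 84.4 kb in WT livers and 67.0 to 140 kb in nodules, with nodule 125279 just below the lowest inflamed liver. Per 1000 peaks of the list the step held 1.13 ± 0.121 in inflamed, 0.671 ± 0.131 in WT and 0.729 ± 0.1204 in nodules (SD, n = 5). With equal lists, inflamed livers had 22 to 31 peaks and WT livers 15 to 21, and 109 to 138 kb against 50.3 to 73.2 kb were under peaks. In this step, then, inflamed and WT livers remained apart with lists of equal length. With the full lists, the groups were also apart outside the segment. From 140 to 141 Mb inflamed livers had 19 to 31 peaks covering 44.1 to 88.9 kb, and WT livers 5 to 12 covering 10.5 to 39.8 kb. From 130 to 131 Mb the values were 14 to 18 peaks and 37.2 to 51.6 kb against 5 to 11 and 13.4 to 33.0 kb. The share of such steps in the genome was not counted, with full or with equal lists. The separation is therefore not shown to be particular to the third step.

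Member regions were then counted by the groups that carried them. Members marked in every inflamed liver and no WT liver numbered 17 (5.11%), against 4.82% of all merged regions. The 333 members include the 137 of nodule 123206 alone, and with its list left out before merging the 17 were 7.94% of 214 members, against 4.94% of all regions. The 17 members were 2352 to 16228 bp wide, and 9 of them lay between 137089621 and 137623983, a stretch of 534 kb. These 9 were 13.8% of the 65 members that start in the third step, and the other 8 were 2.99% of the 268 members elsewhere in the segment. Without the list of 123206 the shares were 14.1% of 64 and 5.33% of 150. The step having been singled out for its values, these shares were not tested. The widest of the 17 were at 139455646 to 139471873 and 139035597 to 139045910, in the block, where the peaks of inflamed livers covered 2466 to 3396 bp and 2175 to 3671 bp and nodule 123206 widened the merged regions to 16228 and 10314 bp. The next were at 137374542 to 137383927, 137357914 to 137365170 and 136197747 to 136203179. At 137374542 to 137383927 the inflamed livers had 6378, 5415, 8753, 5901 and 5256 bp under peaks, and the other 10 animals none.

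Members marked in every inflamed liver and no nodule numbered 10 (3.003%), against 1.28% of all merged regions. With the list of 123206 left out, 11 of 214 (5.14%) had a peak in every inflamed liver and in none of the other 4 nodules, against 1.42% of all regions. Of the 10, 9 started in the third step. Their widest were the regions at 137374542 and 137357914, and those at 137401692 to 137409349, 137089621 to 137094457 and 137253009 to 137257737. The region at 137401692 to 137409349 also had a peak in WT animal 130748. The 2 lists shared 8 regions, 47.1% of the first and 80.0% of the second, and both require a peak in the same 5 inflamed livers, so that they are not independent. With equal lists the counts fell to 5 and 3, and in the top 50% of each list to 9 and 1. The shares of all merged regions under these settings are not given here. Whether the segment stays above them with shorter lists is therefore not shown. Nodules had a peak in 2 (123390), 3 (124711), 5 (123206), 7 (125278) and 8 (125279) of the 17 members. Their lists held 28749, 26683, 30110, 39291 and 42736 peaks in the same order. The 2 nodules with the longest lists thus had the most of these members, and list length and retention cannot be told apart here. No member showed the reverse, a mark in every WT liver and no inflamed one, which was found in 0.399% of all merged regions.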

How the data were processed

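H3K27Ac ChIP-seq peaks of 15 mice were analysed. The study left 2 of the 15 out of its principal component analysis as outliers and does not name them in the text, and all 15 were kept here. A control library of WT liver, titled input and described as an IgG precipitation in the labels, was not used here. Per the submitters' processing notes, Bowtie 0.12.7, MACS 1.4 and build mm9 were used; replicates were not pooled. Each deposited list gives the start, end and name of a peak and the peak caller's score, at least 50, on a scale not given in the sources used here; the score was used only to rank peaks within a list. Deposited peak positions were taken as they stand, and coordinates are printed counting from 1. The lists were of 26390 to 42736 peaks. Depth is unknown, and deeper libraries can give more peaks. No pair of animals of a group shared more than 2 identical peaks.

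The member regions, lists and steps were chosen with earlier results of these data known. Peaks of chromosomes 1 to 19 and X were used. Differences between group means were tested by exact permutation, two-sided, and p-values were adjusted after Benjamini and Hochberg, over 3 tests for inflamed against WT livers in the segment and 18 for the neighbouring segments. Regions were named by rule: up to 10 with the largest number of nodules minus other livers with a peak and up to 5 of the opposite, ties going to the larger summed width in nodules or in other livers, the 5 widest present in all 15 animals, and the 5 widest of each list present in all animals of one group and none of another. The search for the block and the calls were tested on the deposited lists with simulated peaks put in, and the permutation test on random numbers. Python 3.11.15, NumPy 2.4.6, pandas 2.3.3 and matplotlib 3.10.9 were used. Results were recomputed with the higher-scoring 50% of every list, with 26375 peaks per animal (equal lists), with assignment by midpoint, values relative to the list, other bins, offsets, references, overlaps and segments, and without each animal in turn.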

Additional observations from a re-analysis of the deposited data

Results flagged for a closer look

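In groups of 5, an animal was singled out when its gap to the nearest other was more than 0.71 of the range of the group. This was examined in 45 groups of values, and 6 were singled out. Chance gives about 1 in 20, but that level does not apply to the nodules here, because the segment was chosen on their peaks. Their values are a description with no test. Nodule 123206 was the highest nodule in 4 of them: 164 peaks in the block (next 50), 1111 kb under peaks in the block (next 243 kb), 137 members with a peak in it alone (next 11), and an excess of 782 kb in the densest run of chromosome 1 (next 105 kb). All 4 rest on the same peaks, those that defined the block, which holds 135 of the 137 members. WT animal 130748 was the lowest WT liver in the 5 Mb after the segment, with 10 peaks (next 25) and 20393 bp under peaks (next 108119 bp).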

How the results depend on the processing

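The block of nodule 123206 was found under each alternative tried, with a start from 138.25 to 138.4 Mb and an end at 140.0 Mb, except that in the top 50% of each list it ended at 139.7 Mb. The tests of inflamed against WT livers in the segment changed with list length. With equal lists the difference was -2.8 peaks, 16602 bp under peaks and 637.5 bp in median width, and relative to the list of each animal it was -0.0186 peaks per 1000, 0.0247 percentage points of covered length and 188.4 bp, none past the threshold. Over 14 alternatives the adjusted p (exact permutation tests) was 0.0119 to 0.897 for number, 0.0119 to 0.635 for covered length and 0.0635 to 0.659 for width. Leaving out 1 animal gave 39.05 to 46.55 peaks, 111668 to 150363 bp and -301.6 to -95.35 bp.

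In the neighbouring segments, the number of tests past the threshold was 0 to 4 of 18 when 1 animal was left out, the 4 without nodule 124711. Of these 4, 2 were the differences in number of peaks between inflamed and WT livers, before and after the segment. Their unadjusted p (0.00794, exact permutation tests) does not involve nodules. Whether they passed thus depended on the nodule tests in the same adjustment. Reversed differences, none past the threshold, were as follows before the segment. With equal lists, inflamed minus WT was -1.2 peaks, -25634 bp covered and 6.8 bp in width, HCC minus inflamed 4.2 peaks and HCC minus WT 234.5 bp in width. Relative to the list, they were -0.240 peaks per 1000 and -0.0279 percentage points for inflamed minus WT, 0.267 peaks per 1000 for HCC minus inflamed, and 81.7 bp for HCC minus WT. Leaving out 1 animal, HCC minus inflamed was -11.75 to 0.5 peaks and HCC minus WT -265.1 to 63.4 bp. After the segment, HCC minus inflamed was 6158 bp covered in the top 50%, 3370 bp with equal lists and -28386 to 13881 bp leaving out 1 animal. In width it was -230.6 bp in the top 50%, -45.1 bp relative to the list and -81.65 to 442.1 bp leaving out 1 animal.

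Members marked in every inflamed and no WT liver numbered 9 in the top 50%, 5 with equal lists, 37 with at least 4 of 5 against at most 1 of 5, and 17 to 24 leaving out 1 animal. For WT without inflamed the numbers were 2 with equal lists, 1 with peaks over at least 50% of the region, 5 with at least 4 against at most 1, and 0 to 2. For inflamed without nodules they were 1 in the top 50%, 3 with equal lists, 19 with at least 4 against at most 1, and 10 to 14. With at least 4 against at most 1 there was 1 for nodules without WT (0 to 1 leaving out 1 animal) and there were 5 for WT without nodules. The shares of all merged regions under these settings are not given here, so these counts do not place the segment against the genome. The share of 5 Mb segments with every inflamed above every WT liver was 7.30% by number and 5.06% by covered length with equal lists. For nodules above inflamed livers it was 0.195% with segments of 2.5 Mb and 1.498% with equal lists, and for nodules above WT livers 0.945% in the top 50% and 0.375% with equal lists. The cause was not tested. No paired analysis was possible because the groups share no replicate numbers. Depth was unknown, which limits every count of peaks.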

Other observations

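The search that gave the block was repeated on chromosomes 1 to 19 and X in all 15 animals, 300 runs in all, an addition chosen after seeing the data. The largest excess was not that of chromosome 1 but 925 kb on chromosome 9, from 6.1 to 8.1 Mb, and it was in the same nodule. There 123206 had 127 peaks covering 59.4% of the run, and the other 14 animals had 11 to 32 peaks covering 1.21% to 5.40%. Regions with a peak in 123206 alone numbered 105 in this run and 135 in that of chromosome 1, which are 7.39% and 9.51% of all the regions it had to itself. Peaks of the chromosome 9 run were wider, with a median of 5585 bp against 4198 bp, and ranked higher in the list, with a median score percentile of 52.2 against 25.1.

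The third largest excess was 243 kb, in nodule 125279 on chromosome 8 from 10.6 to 11.8 Mb, with 76 peaks covering 48.8% against 13.6% to 27.6% in the other animals. Of the 10 runs with an excess over 100 kb, 8 were in nodules, 2 in WT livers (both 130748) and 0 in inflamed livers. The median over 100 runs was 30.5 kb in nodules, 13.8 kb in WT livers and 10.7 kb in inflamed livers. The groups cannot be compared by these medians or by the count of 10 runs, because the reference was the mean of WT and inflamed livers, which holds 4 other animals of the group of a WT or inflamed liver and no nodule. The deposited peaks alone do not show what sets these runs apart, and no cause was tested.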
